A study of Mus musculus with 12 samples.

Results

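The platelet-derived growth factor (PDGF) family of the mouse was followed through whole-liver RNA-seq of 12 mice. Its 6 members, the ligand genes Pdgfa, Pdgfb, Pdgfc and Pdgfd and the receptor genes Pdgfra and Pdgfrb, were taken by symbol from the 2 deposited count tables, which hold 31663 genes for the CDE diet experiment and 25285 genes for the normal diet experiment. All 6 were found in both tables. CflarLKO mice carry Cflar alleles with a floxed exon 1 and Alb-Cre, whose albumin promoter limits the deletion to hepatocytes, and CflarFF mice carry the floxed alleles without Cre. Cflar encodes cFLIP, an inhibitor of caspase 8 and of cell death. Both were females that were 8 weeks old when a choline-deficient diet with ethionine in the water (CDE) began, and their livers were taken after 28 days. Fgf18Tg mice carry Fgf18 cDNA in the Rosa26 locus behind the CAG promoter and a stop cassette that Alb-Cre removes in hepatocytes, and they were compared with NonTg mice. These mice ate the normal diet and were 8 weeks old. Whether NonTg mice carry Cre or the silent transgene is not given in the sources used here. The labels give C57BL/6 as the strain of all 4 groups, and each group has 3 libraries, which are called replicates 1 to 3.

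PDGFs are secreted dimers that act on a pair of receptor tyrosine kinases. PDGF-A and PDGF-B chains are cut by furin-like convertases before secretion, whereas PDGF-C and PDGF-D leave the cell with a CUB domain that extracellular proteases must remove. PDGFRα binds the A, B and C chains and PDGFRβ binds the B and D chains, and in liver the pathway is best known for driving the division and migration of hepatic stellate cells and other fibroblasts.

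Library totals ran from 6487178 to 10414883 counts in CflarLKO, from 8224069 to 9746145 in CflarFF, from 1136680 to 3089872 in Fgf18Tg and from 1726126 to 2215877 in NonTg mice. A normalized count is a read count scaled by library size and by the TMM factor of edgeR within its own experiment, so levels are not set against each other across the 2 experiments. Cflar had 462 ± 14.1 normalized counts in CflarLKO livers and 638 ± 67.7 in CflarFF livers (SD, n = 3 each), a count that also takes in the exons left intact and cells other than hepatocytes. The difference of -0.47 (edgeR, adjusted p = 0.0235) is no clear check of the deletion, since Cflar also had 122 ± 7.54 in Fgf18Tg and 164 ± 15.2 normalized counts in NonTg livers (SD, n = 3 each), a difference of -0.43 (edgeR, adjusted p = 0.0277). Fgf18 had 5060 ± 734 normalized counts in Fgf18Tg livers and 130 ± 65.9 in NonTg livers (SD, n = 3 each), and the table does not separate the transgene from the endogenous gene. CflarFF replicate 2 stood apart from its group, with 2.75% of its counts in Alb against 7.82% and 5.04% in the other CflarFF libraries, and values without it are given where they matter. Xist had 2694 to 4458 counts in the CDE diet libraries and 0 to 4 in the normal diet libraries, while the Y-linked Ddx3y had 0 to 3 in the CDE diet libraries and 59 to 187 in the normal diet libraries, so that sex differed between the experiments but not between the groups of either. Without TMM factors, that is with library size alone, the median over the genes tested moved to 0.46 on the log2 scale for CflarLKO against CflarFF and to 0.42 for Fgf18Tg against NonTg, in place of -0.00163 and 0.02.

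In CDE-fed mice all 6 PDGF genes were higher in CflarLKO than in CflarFF livers, where 15.6% of all 17036 genes tested were higher (edgeR quasi-likelihood test, adjusted p under 0.05). For all 6 the CflarLKO and CflarFF libraries did not overlap, a pattern that 23.8% of the genes tested shared in that direction. Pdgfra, Pdgfrb, Pdgfd, Pdgfb and Pdgfc were over 2-fold higher, as were 11.6% of the genes tested. The median log2 fold change of the 6 was 2.31, beside -0.00163 for all genes tested. In a bulk sample such as these livers, more or fewer cells of a type cannot be told apart from more or less RNA per cell.

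Among the ligands, Pdgfd and Pdgfb had the larger differences. Pdgfd, whose product acts through PDGFRβ, had 92.4, 86.1 and 109 normalized counts in CflarLKO replicates 1 to 3, against 9.99, 37.8 and 9.52 in CflarFF replicates 1 to 3. CflarFF replicate 2 was the high one of its group, and still lay below the lowest CflarLKO library. This made a log2 fold change of 2.32 (standard error 0.43, edgeR, adjusted p = 0.00359), which was 3.28 without CflarFF replicate 2.

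Pdgfb, the chain that binds both receptors, had 118, 92.1 and 97.4 normalized counts in CflarLKO livers, against 14.4, 36.6 and 11.9 in CflarFF livers. CflarFF replicate 2 again held the highest value of its group. The log2 fold change was 2.29 (standard error 0.35, edgeR, adjusted p = 0.00106), or 2.95 without that library. The mean log2 ratio of Pdgfb to Pdgfd counts differed by -0.17 between CflarLKO and CflarFF (two-sided exact permutation test, p = 0.5, n = 3 each), a test too small to show that the ratios were alike.

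Pdgfc, a latent ligand of PDGFRα that is activated outside the cell, had 191, 126 and 166 normalized counts in CflarLKO livers, against 76.6, 64.9 and 64.2 in CflarFF livers. Here CflarFF replicate 2 lay with the rest of its group. Its log2 fold change of 1.23 (standard error 0.20, edgeR, adjusted p = 0.00136) ran from 1.08 to 1.38 when each library was left out in turn. Pdgfa, the PDGFRα ligand known from epithelia, had 232, 237 and 182 normalized counts in CflarLKO livers, against 166, 166 and 125 in CflarFF livers. The groups came close, with CflarLKO replicate 3 1.09 times as high as the highest CflarFF library. Its log2 fold change of 0.51 (standard error 0.17, edgeR, adjusted p = 0.048) was the smallest of the 6, and it lost its call without CflarLKO replicate 1 (adjusted p = 0.158) or 2 (0.169), without CflarFF replicate 1 (0.0601) or 3 (0.128), and with DESeq2 (0.0793).

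Pdgfra and Pdgfrb, which encode PDGFRα and PDGFRβ, both exceeded 5-fold in the same livers. Pdgfra had 341, 304 and 262 normalized counts in CflarLKO livers, against 47.7, 67.3 and 33.3 in CflarFF livers. Its log2 fold change of 2.61 (standard error 0.23, edgeR, adjusted p = 7e-05) ranked 264 from the highest among the 17036 genes tested. Pdgfrb had 451, 373 and 292 normalized counts in CflarLKO livers, against 57.7, 104 and 58.3 in CflarFF livers. For both receptors CflarFF replicate 2 was the high library of its group and lay far under the lowest CflarLKO library. The log2 fold change of Pdgfrb was 2.35 (standard error 0.25, edgeR, adjusted p = 0.000218), a 5.09-fold difference.

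**Figure D1:**
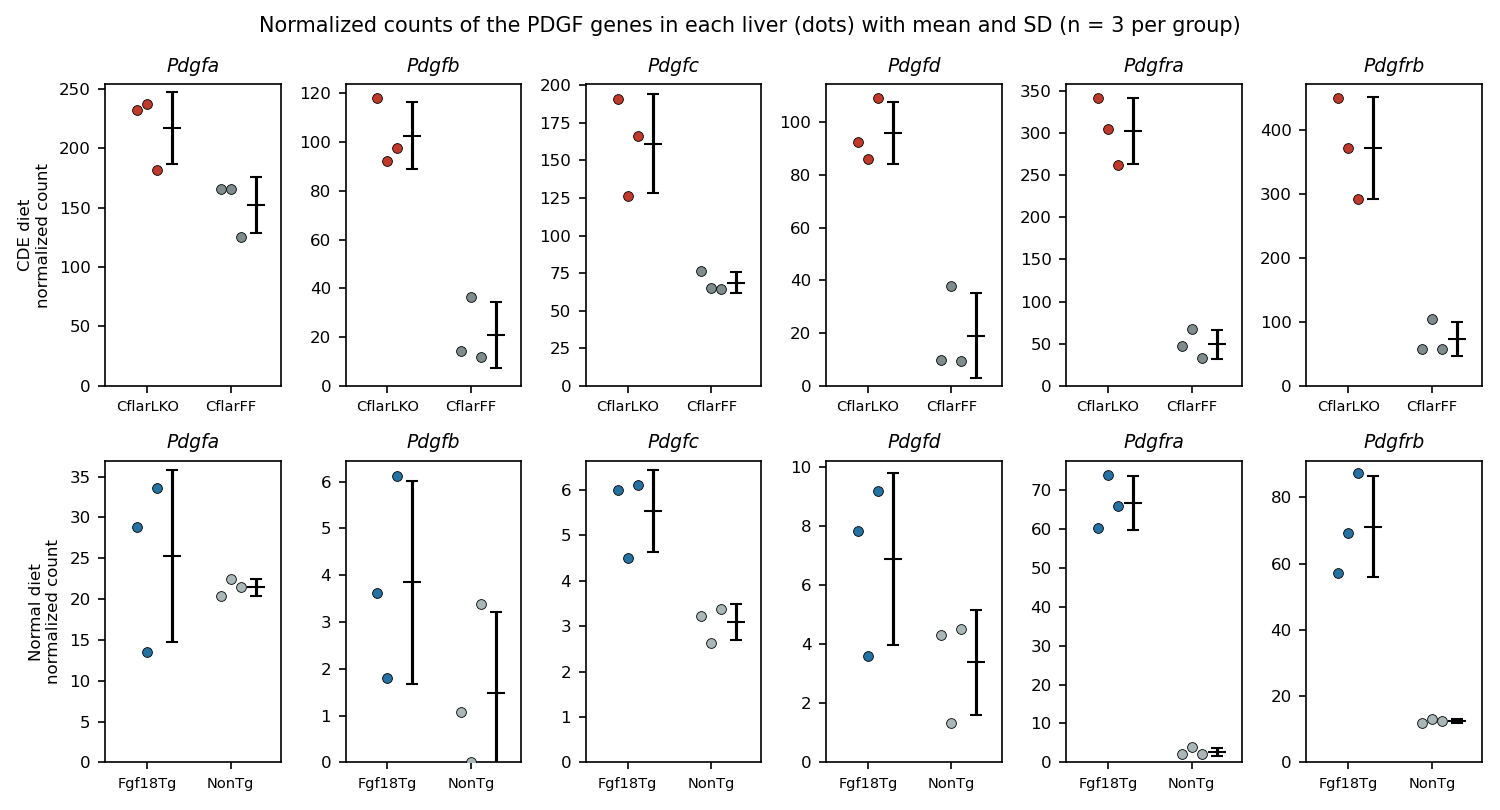
Normalized counts (vertical axes, linear, from 0) of the 6 PDGF genes, CDE diet above and normal diet below, with 1 dot per liver (replicates 1 to 3 from left to right) and the mean and SD of 3 livers beside them. CflarLKO dots (red) lie above CflarFF dots (dark grey) for all 6 genes, whereas in the normal diet experiment Fgf18Tg dots (blue) stand clear of NonTg dots (light grey) for Pdgfc, Pdgfra and Pdgfrb, and the lower bar of Pdgfb in NonTg is drawn only down to 0.

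Promoter windows of RefSeq (build GRCm38.p6), from 250 bases before the annotated start to 50 bases after it, were matched by symbol to 4 of the 6 members: Pdgfa, with 2 starts, Pdgfc, Pdgfd and Pdgfra. The part before the start is shown for the 3 of these 4 that were over 2-fold higher in CflarLKO livers. It is printed 5′ to 3′ on the strand of the gene and in lower case. The lines below give Pdgfra at chr5:75152001-75152250, Pdgfc at chr3:81036166-81036415 and Pdgfd at chr9:6168236-6168485, all on the + strand. Capitals mark a match to an E-box (CANNTG) in Pdgfra, to a TEAD motif (GGAATG) in Pdgfc and to a TATA box (TATAAA) in Pdgfd.
Pdgfra: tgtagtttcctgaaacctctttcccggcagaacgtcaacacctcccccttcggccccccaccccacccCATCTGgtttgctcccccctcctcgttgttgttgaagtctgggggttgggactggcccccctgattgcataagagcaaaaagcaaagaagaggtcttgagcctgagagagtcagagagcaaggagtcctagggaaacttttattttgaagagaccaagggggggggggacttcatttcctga
Pdgfc: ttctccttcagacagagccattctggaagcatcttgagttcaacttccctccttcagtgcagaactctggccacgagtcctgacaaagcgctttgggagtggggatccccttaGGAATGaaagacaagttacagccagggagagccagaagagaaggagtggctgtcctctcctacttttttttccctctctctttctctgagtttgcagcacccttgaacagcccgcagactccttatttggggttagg
Pdgfd: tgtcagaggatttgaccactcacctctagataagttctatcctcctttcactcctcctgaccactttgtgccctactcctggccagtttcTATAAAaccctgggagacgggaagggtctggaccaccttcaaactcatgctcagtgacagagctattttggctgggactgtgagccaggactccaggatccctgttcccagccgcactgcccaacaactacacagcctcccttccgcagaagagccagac
On both strands and over the whole windows, Pdgfra had 2 E-box matches, Pdgfc had 2 TEAD matches and Pdgfd had 1 match to TATAAA. The Pdgfd match began at position -160 from the start, and whether any match is a working element was not tested. Of all 32851 windows in the table, 72.3% held an E-box, 14.7% a TEAD motif and 13.6% a TATA box. The GC box (GGGCGG), which 35.7% of windows held, had 1 and 2 matches in the windows of the 2 Pdgfa starts and no match in the other 3. CCAAT (37.4% of windows) and the AP-1 motif TGANTCA (7.81%) had no match in any of the members' windows. None of the matches overlapped a match of another motif, and the 4 genes had no motif of the 6 searched in common.

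In Fgf18Tg livers on the normal diet both receptors were higher than in NonTg livers, and no ligand passed the test. Of the 6 members, 3 had enough counts for the test and 2 of these, Pdgfra and Pdgfrb, were higher, where 10.7% of the 10909 genes tested were. Both exceeded 2-fold, as did 6.71% of the genes tested. A member that met the count minimum only through its level in Fgf18Tg livers had to lie higher there, though not to pass the test. Pdgfra was such a gene, so the count of 2 carries little by itself. Pdgfra had 60.1, 73.8 and 65.8 normalized counts in Fgf18Tg livers, against 2.15, 3.96 and 2.26 in NonTg livers. In read counts these were 100, 82 and 43 in Fgf18Tg, against 2, 3 and 2 in NonTg libraries. No NonTg library came near the Fgf18Tg range. The log2 fold change was 4.54 (standard error 0.32, edgeR, adjusted p = 9.73e-08), rank 22 from the highest of the genes tested, and the ratio of the summed counts, scaled for depth, was 24.1 with a 95% interval from 11.5 to 60.6. Such intervals pool the reads of the 3 mice of a group, so they cover counting error only and leave out the spread between mice. The sources used here do not say whether PCR copies of a molecule were counted as separate reads. If they were, even the counting error may be larger than shown.

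Pdgfrb had 57.1, 69.3 and 87.2 normalized counts in Fgf18Tg livers, against 11.8, 13.2 and 12.4 in NonTg livers. The NonTg livers lay within a narrow band, and the lowest Fgf18Tg liver stood far above it. The log2 fold change was 2.46 (standard error 0.25, edgeR, adjusted p = 3.45e-06), a 5.5-fold difference, and it ran from 2.32 to 2.61 when each library was left out.

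The ligands were scarce in these shallower libraries. Pdgfa, the ligand with enough counts for the test, had 28.8, 13.5 and 33.6 normalized counts in Fgf18Tg livers, against 20.4, 22.5 and 21.5 in NonTg livers. Fgf18Tg replicate 2 lay below all NonTg livers and the other Fgf18Tg livers above them. On the log2 scale the difference was 0.21 (standard error 0.31, edgeR, adjusted p = 0.679). Pdgfc had 10, 5 and 4 counts in Fgf18Tg libraries, against 3, 2 and 3 in NonTg libraries, a scaled ratio of 1.78 (95% counting interval 0.744 to 4.7). Its normalized counts did not overlap between the groups, as for 19.4% of the genes tested in that direction, and the two-sided exact permutation test gave p = 0.1, the smallest that 3 mice against 3 allow. Pdgfd had 13, 4 and 6 counts in Fgf18Tg libraries, against 4, 1 and 4 in NonTg libraries, with a ratio of 1.92 (interval 0.854 to 4.7). Pdgfb had 6, 2 and 4 counts in Fgf18Tg libraries, against 1, 0 and 3 in NonTg libraries, with a ratio of 2.25 (interval 0.682 to 9.57). A difference of these 3 ligands was not detectable at this depth, and each interval includes both no change and a change of more than 4-fold.

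**Figure D2:**
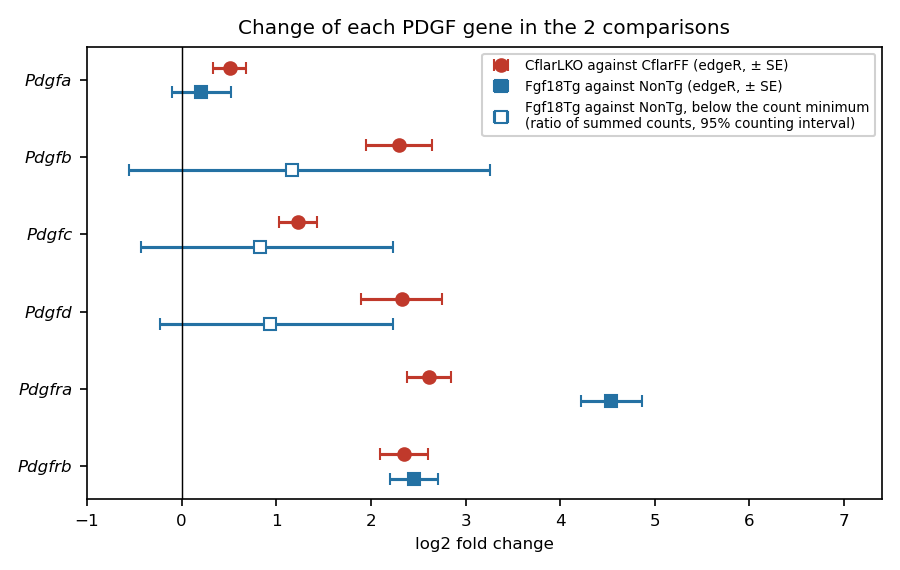
Log2 fold change (horizontal axis) of each PDGF gene for CflarLKO against CflarFF (red circles, edgeR, bars are the standard error) and for Fgf18Tg against NonTg (blue squares, the same, and open squares for the 3 ligands below the count minimum, drawn as the ratio of summed counts with its 95% counting interval). Pdgfrb stands at 2.35 and 2.46, Pdgfra at 2.61 and 4.54, and the open squares of Pdgfb, Pdgfc and Pdgfd have intervals that cross 0.

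Whether the 2 models differed in their effect on a PDGF gene was tested in 1 edgeR fit of all 12 libraries over the 13956 genes that passed the filter and are named in both tables, of which 3.1% differed. Pdgfra differed, with an effect that was smaller in CflarLKO mice by 1.89 on the log2 scale (CflarLKO effect minus Fgf18Tg effect -1.89, standard error 0.50, edgeR, adjusted p = 0.0439). The call was fragile. Of the 12 fits that each left out a library, 9 lost it, and over the 12 the adjusted p ran from 0.0168 to 0.148 and the difference from -2.19 to -1.60. It held without CflarLKO replicate 1, CflarFF replicate 2 or CflarFF replicate 3. It was also lost with DESeq2 (adjusted p = 0.0559) and under scaling by library size only (0.0593). For Pdgfrb the difference was -0.04 (standard error 0.40, edgeR, adjusted p = 0.981). For the ligands the differences were 0.38 for Pdgfa, 1.20 for Pdgfb, 0.49 for Pdgfc and 1.47 for Pdgfd, with adjusted p from 0.424 to 0.758 (edgeR). The Pdgfb difference was -0.14 without NonTg replicate 3 and 1.87 without CflarFF replicate 2, and passed in neither fit (edgeR, adjusted p = 0.976 and 0.294). Pdgfd passed without CflarFF replicate 2 (difference 2.42, edgeR, adjusted p = 0.0371). Diet, age, sex, gene table and control mice differ between the models and cannot be told apart in this test.

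The balance of the receptors within a liver needs no scaling between libraries. In read counts, the ratio of Pdgfra to Pdgfrb was 1.05, 1.06 and 0.754 in Fgf18Tg livers, against 0.182, 0.3 and 0.182 in NonTg livers. The groups did not overlap, and the mean log2 ratio differed by 2.14 (exact permutation test, two-sided p = 0.1, which 3 against 3 cannot go below), with 2 or 3 Pdgfra counts behind each NonTg value. With 1 added to every count the difference was 1.74. In CDE-fed mice the ratio was 0.756, 0.816 and 0.897 in CflarLKO livers, against 0.827, 0.648 and 0.571 in CflarFF livers. These groups overlapped, and the mean log2 ratio differed by 0.28 (p = 0.3 in the same exact test).

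**Figure D3:**
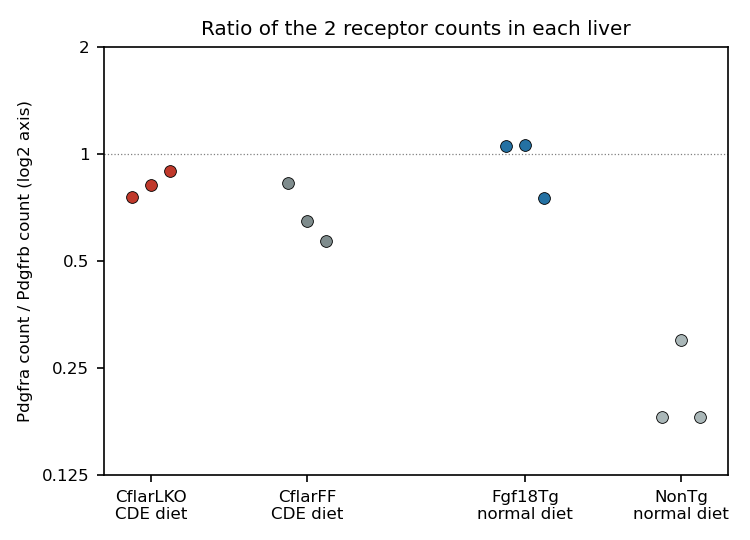
Ratio of the Pdgfra count to the Pdgfrb count (vertical axis, log2 scale) in each liver, 1 dot per library and 3 per group, with a dotted line where the counts are equal. Fgf18Tg livers lie at 0.754 to 1.06 and NonTg livers at 0.182 to 0.3, while CflarLKO and CflarFF livers overlap.

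Levels were compared between genes after division by the exonic length of each gene (GENCODE gene models of GRCm38), as normalized counts per kilobase. This length merges the exons of all transcripts of a gene, and was 10024 bases for Pdgfra and 5478 for Pdgfrb. The order of genes, the sums and the shares depend on it. In CflarLKO livers the order ran from Pdgfa (69.5 ± 9.83) and Pdgfrb (67.9 ± 14.5) to Pdgfc (31.6 ± 6.44), Pdgfd (30.4 ± 3.84), Pdgfra (30.2 ± 3.93) and Pdgfb (24.7 ± 3.32). Errors are the SD of 3 livers. Pdgfa and Pdgfrb differed by less than their spread, and so did Pdgfc, Pdgfd and Pdgfra. In CflarFF livers Pdgfa led alone at 48.9 ± 7.69, followed by Pdgfc at 13.5 ± 1.37 and Pdgfrb at 13.4 ± 4.83, which did not differ beyond their spread, and by Pdgfd, Pdgfb and Pdgfra between 4.93 and 6.05, which did not differ beyond theirs. Pdgfrb thus stood beside Pdgfa at the top in CflarLKO livers and far under it in CflarFF livers.

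In Fgf18Tg livers Pdgfrb was the highest at 13 ± 2.76 normalized counts per kilobase, ahead of Pdgfa at 8.12 ± 3.37 and Pdgfra at 6.64 ± 0.686, and Pdgfa and Pdgfra did not differ beyond their spread. Pdgfd had 2.18 ± 0.922, Pdgfc 1.09 ± 0.178 and Pdgfb 0.923 ± 0.521. In NonTg livers Pdgfa led at 6.88 ± 0.324, ahead of Pdgfrb at 2.28 ± 0.126 and Pdgfd at 1.07 ± 0.567, while Pdgfb at 0.358 ± 0.416 and Pdgfra at 0.279 ± 0.101 did not differ beyond their spread (SD, n = 3 each). Summed over the pair, receptor levels were 98 ± 18.3 per kilobase in CflarLKO and 18.3 ± 6.41 in CflarFF livers, and 19.6 ± 3.07 in Fgf18Tg and 2.56 ± 0.223 in NonTg livers. Summed over the 4 chains, ligand levels were 156 ± 11.8 in CflarLKO and 73.5 ± 14.3 in CflarFF livers, and 12.3 ± 4.98 in Fgf18Tg and 8.92 ± 0.835 in NonTg livers (SD, n = 3 each). In the normal diet experiment the ligand sums overlapped between the groups and the receptor sums did not.

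The make-up of the ligand pool differed in CDE-fed mice. Pdgfa took 43.8, 50.6 and 39.1% of the summed ligand level per kilobase in CflarLKO livers, against 71.1, 61.4 and 68.4% in CflarFF livers. Pdgfb took 16.8, 14.7 and 15.7% in CflarLKO livers, against 4.62, 10.1 and 4.88% in CflarFF livers, and neither set of shares overlapped. Within a library, the log2 ratio of Pdgfb to Pdgfa counts was higher in CflarLKO livers by 1.96 (exact permutation test, two-sided p = 0.1, again the lowest possible, n = 3 each). The shares of Pdgfd were 17.3, 18.2 and 23.3% in CflarLKO livers, against 4.22, 13.8 and 5.15% in CflarFF livers, with CflarFF replicate 2 nearest to the CflarLKO livers for both chains. The log2 ratio of Pdgfd to Pdgfc differed by 1.43 (p = 0.2 in the same exact test). On the normal diet Pdgfa took 67.1, 63.8 and 65.9% in Fgf18Tg livers, against 74.4, 88.5 and 70.3% in NonTg livers, shares that rest on a few counts of the other chains.

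**Figure D4:**
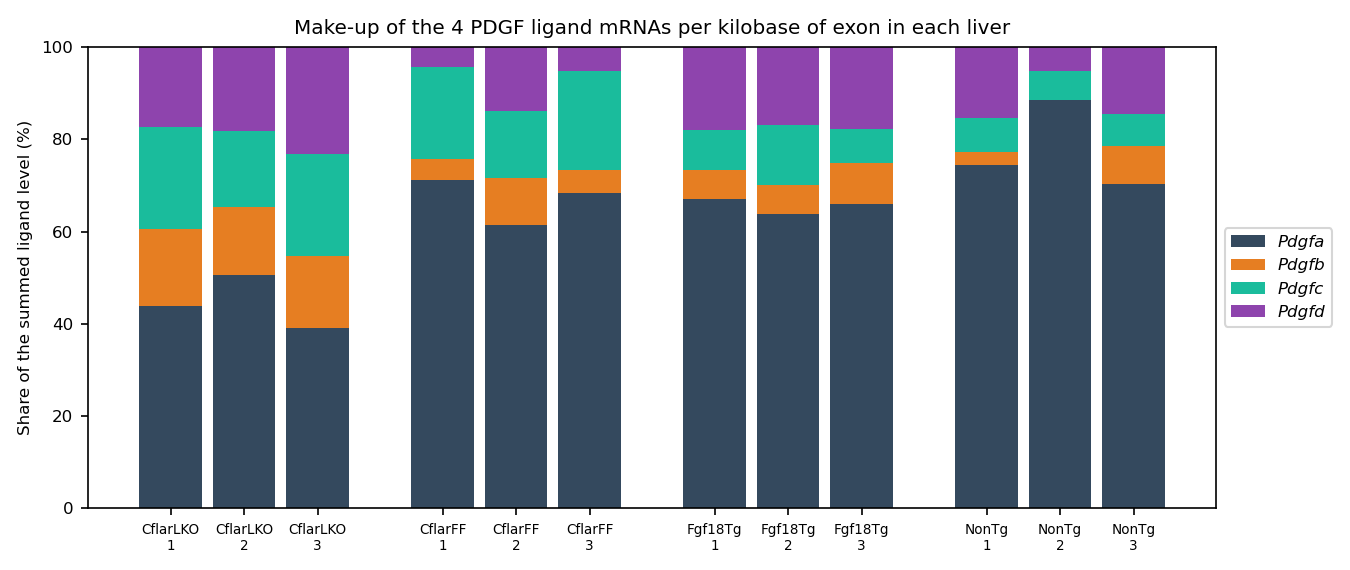
Share of Pdgfa, Pdgfb, Pdgfc and Pdgfd (stacked, percent of the sum of the 4 levels per kilobase of exon) in each of the 12 livers. The Pdgfa share is 39.1 to 50.6% in CflarLKO livers and 61.4 to 71.1% in CflarFF livers, and the normal diet bars rest on few counts of the other chains.

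Genes around the receptors were counted in 4 lists, beginning with 12 genes that cut, activate or capture the ligands. In CflarLKO livers 5 of the 11 tested were higher and 3 were lower, where 15.6% of all genes tested were higher and 13.1% lower, with a median log2 fold change of 0.94 beside -0.00163 for all genes tested. Plat, the tissue plasminogen activator that cleaves latent PDGF-CC, had 697, 415 and 461 normalized counts in CflarLKO livers, against 15.5, 20.1 and 14.3 in CflarFF livers. No other gene of the 4 lists differed as much, with a log2 fold change of 4.97 (standard error 0.26, edgeR, adjusted p = 1.63e-05). Plau, the urokinase that activates PDGF-DD, had 38.7 ± 17.5 in CflarLKO and 9.23 ± 2.89 normalized counts in CflarFF livers (log2 fold change 2.07, edgeR, adjusted p = 0.00477). St14, which encodes matriptase, another activator of PDGF-DD, was higher by 1.37 (edgeR, adjusted p = 0.00043). Sparc, a matrix protein that binds PDGF-B, had 3230 ± 398 in CflarLKO and 869 ± 248 normalized counts in CflarFF livers (1.89, edgeR, adjusted p = 0.000218). Pdgfrl, the receptor-like gene, was the remaining higher one. Of the 5, Plau had no CflarFF library at the count minimum and had to lie higher in CflarLKO livers to be tested. The convertase genes did not follow, as Pcsk6 had 271 ± 3.51 in CflarLKO and 545 ± 82.7 normalized counts in CflarFF livers (-1.01, edgeR, adjusted p = 0.000719), Pcsk5 and the coreceptor gene Nrp1 were the other lower ones, and Furin had 736 ± 60.7 in CflarLKO and 926 ± 94.1 in CflarFF livers without passing (-0.33, adjusted p = 0.108). The number of lower genes was 1 without CflarLKO replicate 2 or 3, without CflarFF replicate 3, or under scaling by library size only. Under that scaling 647 of all 17036 genes tested were lower.

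In Fgf18Tg livers 2 of the 9 genes tested of this list were higher and 1 was lower, where 10.7% of all genes tested were higher and 11.7% lower, with a median of -0.06 beside 0.02 for all genes. Of the 2, Plat entered the test only through its level in Fgf18Tg livers and so had to lie higher there. Plat had 32, 26 and 8 counts in Fgf18Tg libraries, against 0, 0 and 1 in NonTg libraries, which scaled for depth makes a ratio of 49.5 (95% counting interval 8.58 to 1980). The groups were thus far apart, on a single NonTg count that leaves its size poorly known. The fitted log2 fold change was 5.22 (edgeR, adjusted p = 4.72e-05) and ran from 4.69 to 5.38 when each library was left out, apart from the fit without NonTg replicate 3 (7.29), whose NonTg libraries are all at 0 and whose value is no bound. Sparc had 567 ± 109 in Fgf18Tg and 172 ± 11 normalized counts in NonTg livers (1.71, edgeR, adjusted p = 4.13e-07). Pcsk6 had 61 ± 2.77 in Fgf18Tg and 97.4 ± 2.8 normalized counts in NonTg livers (-0.68, edgeR, adjusted p = 0.0035), a call that was lost under scaling by library size only (-0.28). Plau had 96.7 ± 20.3 in Fgf18Tg and 67 ± 24.5 normalized counts in NonTg livers and did not pass (0.53, edgeR, adjusted p = 0.146).

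The intracellular adaptors and effectors of the receptors formed the next list. Of its 31 genes, all tested in CDE-fed mice, 4 were higher and 3 lower in CflarLKO livers, with a median log2 fold change of -0.02, beside 15.6% of all genes tested that were higher and 13.1% that were lower. Nck2, an SH2 adaptor, had 75.1 ± 15.3 in CflarLKO and 29.3 ± 0.893 normalized counts in CflarFF livers (1.36, edgeR, adjusted p = 0.00216). Mapk3, which encodes the kinase ERK1, had 1070 ± 117 in CflarLKO and 613 ± 18.1 normalized counts in CflarFF livers (0.81, edgeR, adjusted p = 0.00197). Src, the founding Src kinase, had 82.2 ± 12.8 in CflarLKO and 31.8 ± 21.7 normalized counts in CflarFF livers (1.36, edgeR, adjusted p = 0.0233). The Src call was lost without CflarLKO replicate 2 or 3 or without CflarFF replicate 1 or 3, with adjusted p up to 0.0835, and its log2 fold change was 2.06 without CflarFF replicate 2. Nras was the remaining higher gene. Sos1, the exchange factor that loads Ras, had 261 ± 31.1 in CflarLKO and 496 ± 49.2 normalized counts in CflarFF livers (-0.93, edgeR, adjusted p = 0.00106), and Hras and Crkl were the other lower genes. The regulatory and catalytic subunits of PI3 kinase, Pik3r1 and Pik3ca, were at -0.03 and 0.12 (edgeR, adjusted p = 0.873 and 0.608). Scaled by library size only, 14 genes of the list were higher and 1 was lower. Under that scaling 6649 of all 17036 genes tested were higher and 647 lower. Left-out libraries brought the counts of the list to between 2 and 3 higher and between 1 and 3 lower.

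In Fgf18Tg livers 29 of these 31 genes were tested, 2 were higher and 1 was lower, beside 10.7% and 11.7% of all genes tested, with a median of -0.02. Nck2 had 18.6 ± 1.68 in Fgf18Tg and 2.42 ± 1.44 normalized counts in NonTg livers (2.95, edgeR, adjusted p = 0.000184), and the ratio of its summed counts was 8.12 (95% counting interval 3.54 to 22.9). Mapk3 had 132 ± 7.77 in Fgf18Tg and 82.8 ± 7.04 normalized counts in NonTg livers (0.66, edgeR, adjusted p = 0.00313). No NonTg library reached the count minimum of the filter for Nck2. It was tested only through its level in Fgf18Tg livers and had to lie higher there. Sos1 had 95.4 ± 8.96 in Fgf18Tg and 128 ± 12 normalized counts in NonTg livers (-0.43, edgeR, adjusted p = 0.0436), a call that DESeq2, scaling by library size only and leaving out either replicate 1 or 3 of Fgf18Tg or of NonTg each removed. Pik3r1, the most abundant gene of the list, had 143 ± 27.9 in Fgf18Tg and 174 ± 39.6 normalized counts in NonTg livers (-0.26, edgeR, adjusted p = 0.338). Scaled by library size only, 9 genes were higher, as were 3632 of all 10909 genes tested.

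Genes that restrain the receptors formed a list of 11. In CflarLKO livers 3 were higher, where 15.6% of all genes tested were, and the other 8 did not pass, with a median log2 fold change of 0.19. Sla, an adaptor that aids receptor downregulation and is known from blood cells, had 80.4 ± 3.74 in CflarLKO and 28.5 ± 10.3 normalized counts in CflarFF livers (1.50, edgeR, adjusted p = 0.00261). Socs3, a cytokine-induced inhibitor, had 104 ± 21.3 in CflarLKO and 45.4 ± 10.6 normalized counts in CflarFF livers (1.18, edgeR, adjusted p = 0.00467), and Cbl, a ubiquitin ligase that marks the receptors for degradation, had 152 ± 4.28 in CflarLKO and 82.7 ± 7.45 in CflarFF livers (0.88, edgeR, adjusted p = 0.00256). Lrp1, an endocytic receptor that binds PDGFRβ and the most abundant gene of the list, had 1990 ± 68.7 in CflarLKO and 2200 ± 240 normalized counts in CflarFF livers (-0.15, edgeR, adjusted p = 0.495). Scaled by library size only, 8 genes were higher, as were 6649 of all 17036 genes tested. In Fgf18Tg livers none of the 7 genes tested passed in edgeR, where 10.7% of all genes tested were higher and 11.7% lower. The median was 0.03, and 3 were higher under scaling by library size only, as were 3632 of all 10909 genes tested.

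Immediate early genes and mitogenic targets that PDGF is known to induce in cultured fibroblasts formed the last list. They also answer to many other stimuli. Of 20 genes, 17 were tested in CDE-fed mice, and 9 were higher and 0 lower in CflarLKO livers, where 15.6% of all genes tested were higher and 13.1% lower, with a median of 0.96. Of the 9, Egr2 and Tnc had no CflarFF library at the count minimum and had to lie higher in CflarLKO livers to be tested. Egr2, a zinc finger factor, had 32.8 ± 6.59 in CflarLKO and 3.84 ± 2.41 normalized counts in CflarFF livers (3.05, edgeR, adjusted p = 0.000819). Ier3, an early response gene, had 98.9 ± 14.4 in CflarLKO and 14 ± 4.45 normalized counts in CflarFF livers (2.82, edgeR, adjusted p = 0.00013). Ccnd1, cyclin D1, had 2490 ± 482 in CflarLKO and 1270 ± 239 normalized counts in CflarFF livers (0.96, edgeR, adjusted p = 0.00455). The other higher genes were Klf5, Tnc, Fos, Plaur, Junb and Myc. Egr1 and Jun did not pass, at 0.17 and 0.28 (edgeR, adjusted p = 0.862 and 0.685), and both varied widely among CflarFF livers (SD 208 around 311 and SD 385 around 694). The count of higher genes lay between 6 and 10 when each library was left out.

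In Fgf18Tg livers 8 of the 20 were tested and 1 was higher, where 10.7% of all genes tested were, with a median of 0.43. Egr1 had 45.8 ± 20.7 in Fgf18Tg and 14.1 ± 6.42 normalized counts in NonTg livers (1.66, edgeR, adjusted p = 0.00794), a call that was lost in the fit of all 12 libraries (adjusted p = 0.253). Ccnd1 had 154 ± 45.6 in Fgf18Tg and 110 ± 21.9 normalized counts in NonTg livers (0.52, edgeR, adjusted p = 0.0946) and passed without Fgf18Tg replicate 3 (adjusted p = 0.0059). The list had 2 higher genes without any 1 of the Fgf18Tg libraries and 5 under scaling by library size only. Under that scaling 3632 of all 10909 genes tested were higher.

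**Figure D5:**
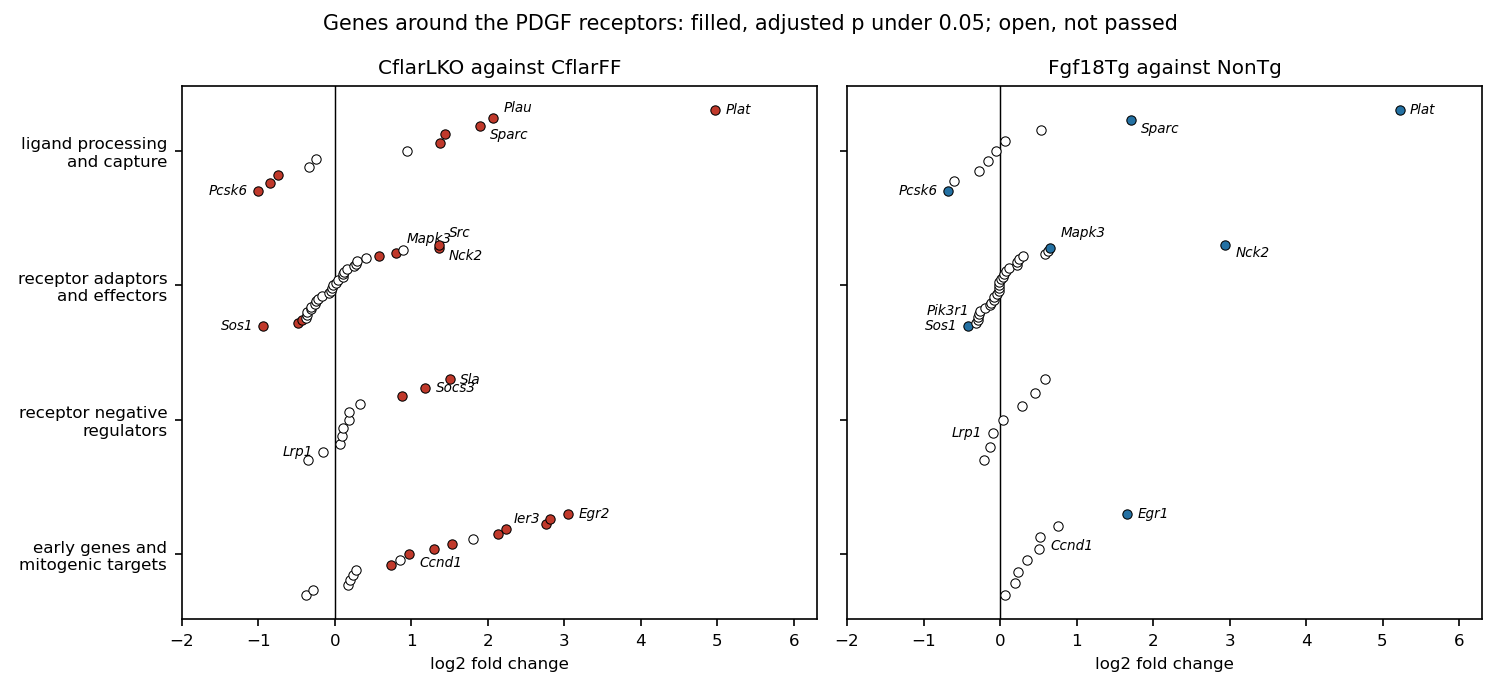
Log2 fold change (horizontal axis) of every tested gene of the 4 lists around the PDGF receptors, CflarLKO against CflarFF on the left and Fgf18Tg against NonTg on the right, with filled dots for an adjusted p under 0.05 (edgeR) and open dots for the rest. Plat lies farthest to the right in both panels, at 4.97 and 5.22, while most adaptors and negative regulators lie around 0.

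Markers of cells that carry or make PDGF were counted in the same livers, where 15.6% of all genes tested were higher and 13.1% lower, and their part in the PDGF values was not tested. Of 15 stellate cell markers tested, 6 were higher and 3 lower in CflarLKO livers, and their summed normalized counts were 3565 to 5482 in CflarLKO and 2295 to 3612 in CflarFF livers. Lrat, the lecithin retinol acyltransferase of stellate cells, did not pass (0.75, edgeR, adjusted p = 0.0697). The mesenchymal factor Tcf21 was higher by 2.44 and Colec10, a collectin of quiescent cells, fell by 2.83 on the log2 scale. Portal fibroblast markers were higher in 7 of 9 cases, with sums of 1893 to 2193 in CflarLKO and 791.7 to 1147 in CflarFF livers, and Eln, elastin, was higher by 2.55. Mural cell markers were higher in 4 of 5 cases, with sums of 1248 to 1586 in CflarLKO and 545.1 to 633.9 in CflarFF livers. Macrophage markers were higher in 11 of 13 cases (7208 to 8107 in CflarLKO and 2971 to 4032 in CflarFF livers). Cholangiocyte markers were higher in 5 of 7 cases (7850 to 11390 in CflarLKO and 1277 to 4097 in CflarFF livers). Of these 5, Cftr had to lie higher in CflarLKO livers to be tested. Such sums are led by the most abundant genes. Spp1 made up most of the cholangiocyte sums, with 8590 ± 1730 normalized counts in CflarLKO and 1770 ± 1410 in CflarFF livers (SD, n = 3 each). Platelet markers, of interest since platelets store PDGF, were higher in 1 of 3 cases (Pf4, 1.80), with sums of 132.3 to 166.6 in CflarLKO and 86.58 to 126.3 in CflarFF livers. Endothelial markers were higher in 1 of 12 cases, with sums of 1785 to 2431 in CflarLKO and 1431 to 1824 in CflarFF livers. Eng, the higher one, had 818 ± 132 normalized counts in CflarLKO and 397 ± 57 in CflarFF livers (SD, n = 3 each). The median log2 fold change of the endothelial markers was 0.30. Hepatocyte markers were lower in 5 of 12 cases, with sums of 301600 to 405200 in CflarLKO and 511100 to 1239000 in CflarFF livers. Of the 3 sex-linked genes tested none passed in edgeR. Of the markers listed, 5 of 9 of mural cells and 3 of 10 of platelets were tested in CDE-fed mice.

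In Fgf18Tg livers, where 10.7% of all genes tested were higher and 11.7% lower, 7 of 13 stellate cell markers were higher and 1 was lower, and the summed normalized counts were 931.5 to 1086 in Fgf18Tg and 414.3 to 453.2 in NonTg livers. Tcf21 was higher by 3.30 and Hand2, another mesenchymal factor, by 2.91, Lrat did not pass (0.98, edgeR, adjusted p = 0.0812), and Colec10 fell by 1.85 on the log2 scale. Of 4 portal fibroblast markers 3 were higher, with sums of 154.8 to 189.7 in Fgf18Tg and 51.66 to 72.69 in NonTg livers, Cd34 was higher by 4.00. Both mural markers tested were higher (250.8 to 296 in Fgf18Tg and 118.9 to 144.2 in NonTg livers), as were 5 of 10 macrophage markers (497.6 to 570.5 in Fgf18Tg and 265.6 to 333.6 in NonTg livers) and 2 of 3 cholangiocyte markers (445.4 to 671.5 in Fgf18Tg and 113.7 to 165 in NonTg livers). Spp1 made up most of the cholangiocyte sums, with 1855 read counts in all in Fgf18Tg and 273 in NonTg libraries. All 3 platelet markers tested were higher, with sums of 81.73 to 157.5 in Fgf18Tg and 25.11 to 35.51 in NonTg livers. Of 10 endothelial markers 1 was higher and 2 were lower, with sums of 349.7 to 455.8 in Fgf18Tg and 214.1 to 299.5 in NonTg livers. Eng, the higher one, had 744 counts in all in Fgf18Tg and 121 in NonTg libraries, and weighed much in these sums. The median log2 fold change of the endothelial markers tested was 0.02. Of 12 hepatocyte markers 1 was higher and 6 were lower, with sums of 195600 to 228000 in Fgf18Tg and 239900 to 270900 in NonTg livers, and of 4 sex-linked genes none passed in edgeR. Some of the higher markers had no NonTg library at the count minimum. These were 3 of the 7 of stellate cells (Hand2, Des and Tcf21) and 1 of the 3 of portal fibroblasts (Cd34). The same held for 1 of the 2 of mural cells (Tagln) and 3 of the 5 of macrophages (Ccr2, Ly6c2 and Cx3cr1). It also held for 1 of the 2 of cholangiocytes (Epcam) and all 3 of platelets. All these markers had to lie higher in Fgf18Tg livers to be tested, so the counts of higher markers carry little by themselves. Many listed markers were not tested on the normal diet. Those tested were 4 of 10 of portal fibroblasts, 2 of 9 of mural cells, 3 of 10 of platelets and 3 of 7 of cholangiocytes. Gli1 and Cftr, listed as markers of portal fibroblasts and cholangiocytes, were among those not analysed here on the normal diet.

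The genes most like a PDGF member were sought over all 12 libraries by the root mean square difference of log2 normalized counts, each gene centred within its experiment, among 9968 genes tested in both experiments. For Pdgfrb these were Fbn1, fibrillin 1 (0.195), Tmsb10, a thymosin (0.212), and Ccdc80, a secreted matrix protein (0.217). For Pdgfra they were Adamtsl2, an extracellular matrix protein (0.364), Mmp2, the gelatinase (0.374), and Capn6, a calpain-like gene (0.416). Pdgfra itself lay at 0.67 from Pdgfrb, rank 54 among the genes from Pdgfra and rank 327 from Pdgfrb. For Pdgfa, Zfyve27 (0.179) and Sh3gl1 (0.189) were among the 3 nearest. These distances also take in whatever sets the libraries apart, such as depth, cell make-up and any batch.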

How the data were processed

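Polyadenylated RNA of 12 livers was amplified by PCR and sequenced on an Illumina NovaSeq, and the authors mapped the reads to GRCm39 with Bowtie2. The counter and annotation are not given in the sources used here. The deposited tables hold whole read counts per gene, which were analysed, and the authors' normalized values, a signal made by dividing the counts by 1 factor per library in TCC-GUI. All columns were matched to samples.

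Counts were fitted within each experiment in R 4.3.3 with edgeR 4.0.16 (TMM, filterByExpr with minimum count 10 and total 15, robust quasi-likelihood test) with p-values adjusted over all genes tested (Benjamini-Hochberg) and calls made under 0.05. Where the filter removed a member, its counts were compared as a ratio with an exact binomial interval at the 95% level. Errors are the SD over 3 mice. The pipeline was tested on simulated data. Separate mice are not named by the labels beyond the replicate number, so p-values measure the spread between these samples.

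The members, gene lists and alternatives were chosen with earlier results of these data known. Named genes were all members, up to 4 of each pathway list (the 2 with the largest change among those called, the most abundant, and the largest called in the other direction), defining markers, and the 3 genes most like each member tested in both experiments. St14, Cbl, Furin, Pik3ca, Lrat and, in CDE-fed mice, Pik3r1, Egr1 and Jun, in Fgf18Tg mice Plau, and genes named without values were added after their values were seen. The results were recomputed with DESeq2 1.42.0, with limma 3.58.1 (trend) on the authors' values, with other scaling (RLE, library size alone, TCC factors), other low-count filters, stricter thresholds, the replicate number as a block, a joint fit of 12 libraries, and each library left out. The tables name genes by symbol only, so no position is given from them, and promoter windows come from RefSeq on the older build GRCm38.p6, as do exonic lengths from GENCODE. Pdgfb and Pdgfrb have no entry in the promoter table used. A few genes of the lists are not reported here.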

Additional observations from a re-analysis of the deposited data

Results flagged for a closer look

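For Pdgfra, the change in the 2 models differed by a test of the difference itself, though the call was fragile. Its effect was smaller in CflarLKO than in Fgf18Tg mice, with a difference of -1.89 on the log2 scale (standard error 0.50, edgeR, adjusted p = 0.0439), and every library of CflarLKO and of Fgf18Tg mice was above all libraries of its own control group. The call was lost in 9 of the 12 fits that each left out a library, with DESeq2 (adjusted p = 0.0559) and under scaling by library size only (edgeR, adjusted p = 0.0593), while Pdgfd passed without CflarFF replicate 2 (2.42, edgeR, adjusted p = 0.0371). In Fgf18Tg livers the comparison rests on 7 Pdgfra counts in all in the NonTg libraries, against 225 in the Fgf18Tg libraries. Diet, age, sex, table and controls cannot be told apart from the model.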

How the results depend on the processing

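Within each experiment, all 6 members kept their direction under every alternative that could be fitted, and Pdgfb, Pdgfc, Pdgfd, Pdgfra and Pdgfrb also kept their call in CDE-fed mice, as Pdgfra and Pdgfrb did in Fgf18Tg mice. The Pdgfa call was the exception. Scaling by library size only gave 6649 higher and 647 lower genes in CflarLKO mice, 3632 higher and 344 lower genes in Fgf18Tg mice, and 0 PDGF members whose effect differed between the models. An adjusted p under 0.01 left 1553 higher and 1010 lower genes in CflarLKO mice and 646 higher and 732 lower in Fgf18Tg mice, and a change over 2-fold left 691 lower in CflarLKO mice and 732 higher and 223 lower in Fgf18Tg mice. DESeq2 called 726 genes higher and 796 lower in Fgf18Tg mice and 0 members different between the models. When each library was left out, 1235 to 2616 genes were lower in CflarLKO mice and 0 to 2 members differed between the models. With 1 added to each count, the log2 difference of the receptor ratio in Fgf18Tg mice was 1.74. The cause of these shifts was not tested. Same-numbered libraries showed little common deviation (correlations from -0.11 to 0.08), which in so few libraries cannot exclude pairing. The labels do not say whether the numbers pair the mice. With the replicate number as a block, 2408 genes were higher and 1862 lower in CflarLKO mice with all 6 members higher, 1260 and 1290 in Fgf18Tg mice with 2 members higher, and 1 member differed between the models. Depth limited Pdgfb, Pdgfc and Pdgfd on the normal diet.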
